A study of Mus musculus with 25 samples.

Results

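The class I and II histone deacetylases are the 10 genes *Hdac1* to *Hdac10*, taken here as the family that holds the targets of trichostatin A (TSA). They were taken from the table of gene counts by Ensembl identifier, and they make up 10 of its 55375 genes. All 10 passed the filter of a mean of at least 1 read per library. RNA was sequenced from 25 pools of 5 or 10 late two-cell mouse embryos in 11 groups, collected 28 to 29 h after insemination or activation.

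IVF embryos (4 libraries) came from B6N oocytes and DBA/2 sperm and were of both sexes, whereas for SCNT the nuclei of female BDF1 cumulus cells were put into BDF1 oocytes. Oocyte strain, embryo sex and the method of making the embryo therefore differed at once between IVF and SCNT. SCNT embryos made in cytochalasin B were a control (2 libraries) or received 10 pL of 1500 ng/µL *Kdm3a* or *Kdm4d* mRNA (2 each). SCNT embryos made in latrunculin A were a control (2), or were exposed to 25 nM TSA for 8 h (2), or to 1 µM of a G9a inhibitor for 24 h (RK-701, 3 libraries, or A366, 2), or to TSA combined with A366, RK-701 or UNC0638 (2 each). The libraries held 6662727 to 21188688 reads on genes, with a median of 13994840. The labels and the study's methods gave no batch. Each library was a pool of embryos, so a p value measured the spread between pools and between library preparations.

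Histone deacetylases remove acetyl groups from lysines of histones and other proteins, which goes with closed chromatin at promoters and enhancers. Class I enzymes (HDAC1, HDAC2, HDAC3 and HDAC8) are nuclear, and HDAC1 and HDAC2 are the catalytic pair of the Sin3, NuRD and CoREST complexes. Class IIa enzymes (HDAC4, HDAC5, HDAC7 and HDAC9) have weak catalytic activity, shuttle between nucleus and cytoplasm with 14-3-3 proteins and bind MEF2 factors, while HDAC6 and HDAC10 form class IIb. TSA and related inhibitors can raise acetylation in cloned embryos, and HDAC1 is known as a main deacetylase of the preimplantation mouse embryo. In the paper, TSA raised H3K9 acetylation significantly in one-cell SCNT embryos, and no such rise was found in two-cell embryos. TSA was in the medium for the first 8 h only. The RNA of the late two-cell embryos was therefore taken after the exposure to TSA had ended. The libraries measured messenger RNA and not the enzymes that TSA binds.

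The 10 genes lay on 8 chromosomes in the mm10 build. *Hdac1* was at chr4:129516104-129542713 on the minus strand, *Hdac2* at chr10:36974544-37001889 on the plus strand, and *Hdac9* spanned chr12:34047580-34917095 on the minus strand. *Hdac6* (chrX:7930120-7947889) and *Hdac8* (chrX:102284639-102505359) are X-linked and were on the minus strand. Counts were taken without regard to strand, and 2 members shared exon bases with another gene, 1.88% of the exon length in *Hdac5* (with *Mir8101*) and 0.56% in *Hdac7* (with *Slc48a1*).

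Promoter sequences are shown for 3 members with different behaviour below, *Hdac2*, the member called with TSA, *Hdac6*, the most abundant class II member, and *Hdac9*, a class IIa member with a low level. Each is the 250 bases before the RefSeq start (GRCm38.p6), 5′ to 3′ on the strand of the gene, at chr10:36974294-36974543 (plus), chrX:7947890-7948139 (minus) and chr12:34917096-34917345 (minus). Capitals mark the GC box (GGGCGG on either strand) and the CCAAT box (CCAAT on either strand).
Hdac2: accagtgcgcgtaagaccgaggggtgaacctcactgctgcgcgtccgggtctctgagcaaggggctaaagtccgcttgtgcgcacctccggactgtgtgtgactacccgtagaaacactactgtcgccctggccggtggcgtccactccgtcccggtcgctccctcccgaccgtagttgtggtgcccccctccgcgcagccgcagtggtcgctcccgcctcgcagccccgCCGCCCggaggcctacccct
Hdac6: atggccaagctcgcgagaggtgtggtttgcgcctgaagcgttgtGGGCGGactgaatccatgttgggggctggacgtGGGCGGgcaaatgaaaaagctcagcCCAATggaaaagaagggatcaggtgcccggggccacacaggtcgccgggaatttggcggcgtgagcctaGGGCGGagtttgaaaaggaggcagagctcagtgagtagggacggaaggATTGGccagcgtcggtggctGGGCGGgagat
Hdac9: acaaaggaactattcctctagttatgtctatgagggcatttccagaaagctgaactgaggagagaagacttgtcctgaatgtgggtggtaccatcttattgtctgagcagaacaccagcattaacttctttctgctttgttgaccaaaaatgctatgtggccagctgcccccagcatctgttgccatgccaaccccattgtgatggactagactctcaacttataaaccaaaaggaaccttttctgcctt

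Promoter entries were found for 7 of the 10 members, *Hdac2* and *Hdac4* to *Hdac9*. The *Hdac2* promoter was 68.8% G and C and held 1 GC box, *Hdac6* was 61.2% and held 4 GC boxes and 2 CCAAT boxes, and *Hdac9* was 44.4% and held neither motif, against a mean of 53.2% G and C over all 32851 promoters. A GC box was present in 32.7% of all promoters of this length, a CCAAT box in 33.9%, a TATA box (TATAAA on either strand) in 12.4%, and the homeodomain core TAATCC on either strand in 6.25%. The promoter of *Hdac9* shown above held TATAAA, and this motif also occurred for *Hdac8*. *Hdac9* was the member with TAATCC, which lay in another of its promoters (chr12:34528890-34529139) that is not shown. These are matches of letters and not sites.

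*Hdac1* was the most abundant member of the family in every library. Levels between genes are compared as TPM, counts divided by exon length and scaled to a sum of 1000000 over autosomal genes. The mean over 25 libraries was 391 TPM for *Hdac1* (179 to 582), 45.7 for *Hdac2* (21.0 to 88.8) and 22.8 for *Hdac6* (12.6 to 35.2), a mainly cytoplasmic enzyme that deacetylates tubulin. *Hdac9*, *Hdac10*, *Hdac8*, *Hdac3* and *Hdac4* followed with means of 4.27, 4.11, 3.40, 2.67 and 2.66 TPM, and *Hdac5* had 1.07.

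*Hdac7* was at the limit of detection, with 28 reads in all libraries together and 0 reads in 16 of 25. The steps from *Hdac1* to *Hdac2* and from *Hdac6* to *Hdac9* held in 25 of 25 libraries, and that from *Hdac2* to *Hdac6* in 23 of 25. The 5 genes from *Hdac9* to *Hdac4* did not keep a fixed order. *Hdac9* was above *Hdac10* in 12 of 25 libraries, *Hdac10* above *Hdac8* in 15, *Hdac8* above *Hdac3* in 17, and *Hdac3* above *Hdac4* in 12.

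**Figure D1:**
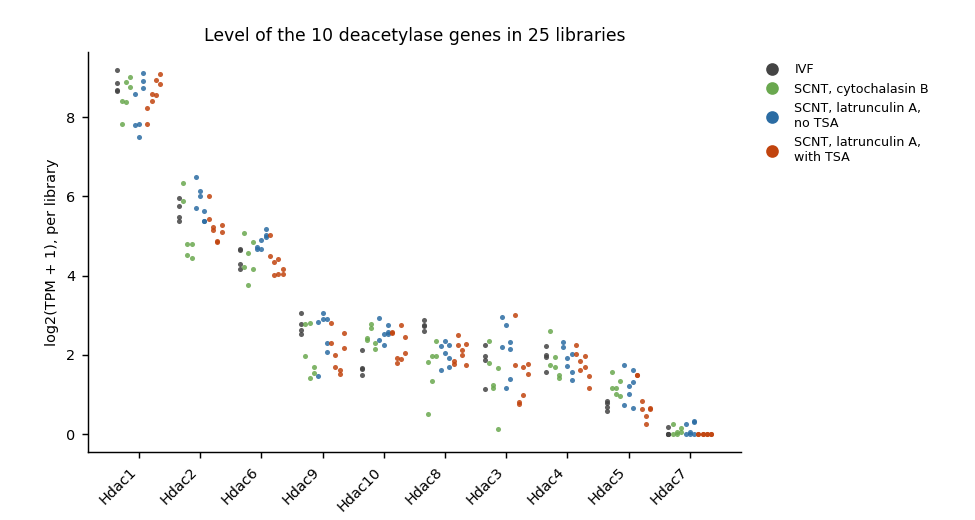
Level of each member, as log2(TPM + 1), with genes in the order of their mean level. Each point is 1 of 25 libraries, placed by group within a gene and coloured as IVF, SCNT in cytochalasin B, or SCNT in latrunculin A without or with TSA, and *Hdac1* (mean 391 TPM) lies above *Hdac2* (45.7) and *Hdac6* (22.8) in the family, with *Hdac7* close to 0.

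*Hdac1* made up between 61.0% and 90.8% of the summed TPM of the 10 members in a single library, and the ratio of *Hdac1* to *Hdac2* differed between groups. The TPM of *Hdac1* was 6.57 to 13.4 times that of *Hdac2* in the IVF libraries. The ratio was 2.52 to 7.54 in the 4 untreated SCNT libraries and 2.58 to 3.56 with A366. With TSA alone it was 3.55 and 7.04, within the range of the untreated libraries. It was 9.90 to 13.7 with RK-701, 9.32 to 17.4 with TSA and a G9a inhibitor, and 12.3 to 24.6 after *Kdm3a* or *Kdm4d* mRNA. These ratios are a description without a test.

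The identity of the samples was checked with marker genes. Of 7 markers of the two-cell embryo, such as *Zscan4d* and *Tcstv1*, 6 were at 1 TPM or more in every library, and all 8 oocyte markers were, with summed levels of 459 to 1961 and 1156 to 4532 TPM. The oocyte markers summed to 1156 to 2251 TPM in the 6 TSA libraries of the matched comparison and to 1922 to 4532 in the 7 latrunculin A libraries without TSA. With RK-701 alone the oocyte sum was 3460 to 4532 TPM. The two-cell markers summed to 459 to 848 TPM (median 509) in those 6 TSA libraries. They summed to 731 to 1163 TPM (median 957) in the 7 libraries without TSA, and to 1691 to 1961 with TSA and UNC0638. Of 12 cumulus cell markers 3 were at 1 TPM or more in every library. Their sum was 139 to 250 TPM in the 6 TSA libraries, where *Ptx3* was at 0, against 73.3 to 151 in the 7 libraries without TSA and 73.0 to 99.4 in IVF libraries. Male embryo markers, *Ddx3y*, *Eif2s3y*, *Uty* and *Kdm5d*, summed to 55.0 to 81.2 TPM in IVF libraries and to at most 0.437 TPM in SCNT libraries. The part of these differences in the results below was not tested. Because reads are scaled to the total of each pool, fewer cells that express a gene and less of its RNA per cell cannot be told apart.

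The first comparison asked how the family differed between SCNT embryos without any treatment, the cytochalasin B and latrunculin A controls together, and IVF embryos. *Hdac1* was lower in untreated SCNT embryos, as was the X-linked *Hdac8*, a class I enzyme known to act on the cohesin subunit SMC3. *Hdac1* had 433, 294, 315 and 354 CPM (counts per 1000000 reads after TMM normalization) in the IVF libraries, 134 and 232 in the cytochalasin B controls, and 248 and 127 in the latrunculin A controls. Every untreated SCNT library lay below every IVF library. How often groups of this size do not overlap over all genes was not counted, so overlap is given here and below as description. The log2 fold change was −0.91 ± 0.20 (SE) with an adjusted p of 0.00091 in edgeR's quasi-likelihood test, a level 1.88-fold lower, and each control alone gave a value close to this (−0.93 and −0.90).

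*Hdac1* was the 1 member called among the 8 autosomal members, while 29.2% of all autosomal genes were called, and 3 of the 8 had an unadjusted p under 0.05, as had 39.6% of all genes. A member is called here when its p value, adjusted over all 25794 autosomal genes tested, is under 0.05. The median log2 fold change was 0.28 over the 8 members and 0.00 over all genes.

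*Hdac8* had 8.37, 9.14, 9.92 and 10.7 CPM in the IVF libraries. It had 3.29 and 0.638 CPM in the cytochalasin B controls and 2.99 and 4.65 in the latrunculin A controls, so the groups did not overlap. In the fit with the sex chromosomes the log2 fold change was −1.82 ± 0.37 with an adjusted p of 0.00041, or 3.53-fold lower, and 29.2% of the genes of that fit were called. It remained called with any 1 of 19 libraries left out, at −2.63 without the first cytochalasin B control and −1.43 without the second.

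Of the 1010 X-linked genes tested, 203 (20.1%) were lower and 116 (11.5%) higher in untreated SCNT embryos, with a median of −0.32. The sex of the embryos and the SCNT procedure cannot be told apart in this comparison. *Hdac6*, the other X-linked member, had 28.7 to 39.5 CPM in IVF and 26.4 to 42.4 CPM in untreated SCNT libraries, and its log2 fold change of −0.03 (95% interval −0.47 to 0.41) was not called.

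**Figure D2:**
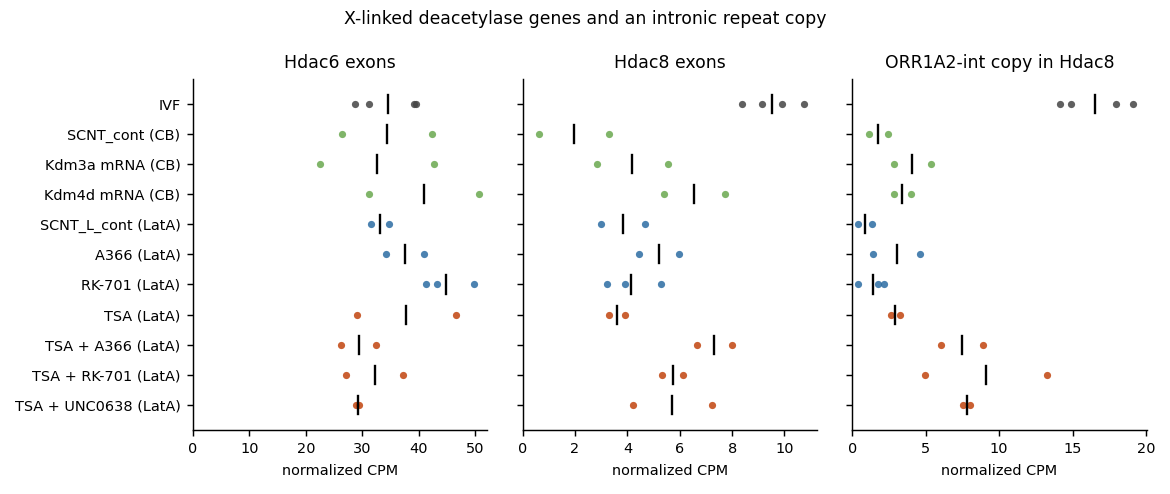
Normalized CPM of the X-linked members *Hdac6* and *Hdac8*, and of an ORR1A2-int repeat copy in an intron of *Hdac8*, in each library (points) by group, with black bars for group means (CB, cytochalasin B, and LatA, latrunculin A). The 4 IVF libraries of *Hdac8* (8.37 to 10.7 CPM) lie above the 4 untreated SCNT libraries (0.638 to 4.65), those of *Hdac6* overlap, and the repeat copy has 14.1 to 19.1 CPM in IVF and 0.372 to 2.42 in untreated SCNT libraries.

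Of the members that were not called, *Hdac9*, which binds MEF2 factors, had 22.2, 30.8, 21.3 and 25.8 CPM in IVF libraries against 19.7, 11.5, 6.57 and 20.0 in untreated SCNT libraries. The groups did not overlap, but the log2 fold change of −0.81 ± 0.32 had an adjusted p of 0.060 in edgeR. *Hdac10*, which removes acetyl groups from polyamines, stood at 1.99 to 3.72 CPM in IVF and 3.68 to 5.59 CPM in untreated SCNT libraries, with a log2 fold change of 0.76 and an adjusted p of 0.069. DESeq2 called both genes, with adjusted p values of 0.048 and 0.034. *Hdac5* had a log2 fold change of 0.93 (95% interval −0.0015 to 1.87) and was not called. The cytochalasin B and latrunculin A controls did not differ in any member by edgeR's test, where 0.0116% of all genes were called, and 0 of 8 members had an unadjusted p under 0.05 against 7.81% of all genes.

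The second comparison asked how the RNA of the family responded to TSA. TSA was averaged over its 3 matched pairs, alone against the latrunculin A control, with RK-701 against RK-701, and with A366 against A366. *Hdac2* was the 1 of 8 autosomal members that was called, and it was lower, while 18.8% of all genes were called and 8.56% were called lower. *Hdac2* had 68.2 and 104 CPM in the latrunculin A controls, 52.4, 54.2 and 63.5 with RK-701, and 85.4 and 91.4 with A366. With TSA it had 81.7 and 59.2 CPM alone, 46.6 and 48.5 with RK-701, and 59.5 and 55.6 with A366.

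The *Hdac2* groups with and without TSA overlapped. The log2 fold change was −0.39 ± 0.13 with an adjusted p of 0.034 in edgeR, 1.31-fold lower, beside a median of −0.12 over all genes. The call was lost with the replicate number as a replicate block (adjusted p = 0.066), in a fit of the compared libraries alone (0.052), and when any 1 of 8 libraries was left out, with log2 fold changes between −0.40 and −0.28 without those libraries.

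*Hdac1* had 248 and 127 CPM in the latrunculin A controls and 140 and 201 CPM with TSA alone. With RK-701 it had 265, 359 and 303 CPM, and with TSA and RK-701 it had 390 and 313. With A366 it had 146 and 114 CPM, against 267 and 294 with TSA and A366.

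The *Hdac1* libraries thus overlapped in the first and in the second pair, and those with A366 did not. The matched average was 0.39 ± 0.16 on the log2 scale with an adjusted p of 0.088 in edgeR, which was not called. Without the first latrunculin A control the value was 0.57 and was called (adjusted p = 0.0072), and without the second it was 0.25 (adjusted p = 0.26). All 4 TSA groups, TSA with UNC0638 included, had a log2 fold change of 0.56 against the 3 latrunculin A groups without TSA (adjusted p = 0.0075, 21.3% of all genes called), a contrast that does not match the G9a inhibitors.

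The 3 pairs gave different values. TSA alone called none of the 8 members in edgeR and 0.372% of all genes, and at an unadjusted p under 0.05 it held 0 members and 12.9% of all genes. TSA added to RK-701 called *Hdac5* (15.6% of all genes), a class IIa member, which had 2.67, 1.10 and 3.75 CPM with RK-701 and 0.850 and 0.488 CPM with TSA and RK-701. Its 2 TSA libraries held 11 and 7 reads, lay below the 3 libraries with RK-701 alone, and gave a log2 fold change of −1.90 ± 0.64 (adjusted p = 0.043).

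TSA added to A366 called *Hdac1* (7.26% of all genes), with a log2 fold change of 1.11 ± 0.28 (adjusted p = 0.015), 2.16-fold higher. A test of the difference between TSA with a G9a inhibitor present and TSA alone, the interaction, called 0 of 8 members in edgeR and 1.51% of all genes. At an unadjusted p under 0.05 it held 15.3% of all genes and 3 members, *Hdac1*, *Hdac5* and *Hdac9*, with differences in log2 fold change of 0.79, −1.63 and −1.45. Without the second latrunculin A control *Hdac1* (1.19, adjusted p = 0.026) and *Hdac9* (−2.45, adjusted p = 0.012) were called in this test, and without the first the values were 0.22 (adjusted p = 0.91) and −0.84 (adjusted p = 0.61).

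**Figure D3:**
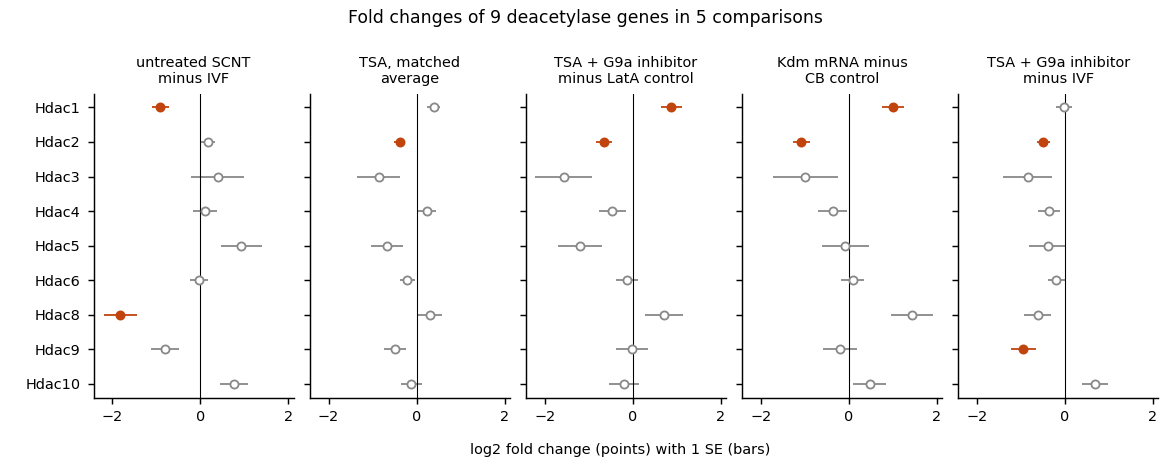
log2 fold change of each member, with *Hdac7* left out, in the main comparisons, with bars of 1 SE. Filled points have an adjusted p under 0.05. *Hdac2* is lower with TSA on the matched average (−0.39), *Hdac1* is lower in untreated SCNT than in IVF embryos (−0.91), and both are called in opposite directions after *Kdm* mRNA (1.00 and −1.09).

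*Hdac7*, a class IIa member best known from blood vessels and lymphocytes, held 0 reads in all 8 TSA libraries. In latrunculin A libraries without TSA it held 3, 1, 6 and 5 reads in 4 of 7 libraries, 15 in all. The other 3 of these libraries were also at 0, so the groups overlapped. A count of 0 over the 8 TSA libraries together allows 3 reads, or 0.0274 CPM. The 7 libraries without TSA together had 0.157 CPM, 5.73-fold above that limit. This ratio takes in the counting error of the TSA side only, and not that of the 15 reads or the spread between libraries. Of these 15 reads 11 came from the libraries with RK-701 alone. In edgeR's test over the matched pairs *Hdac7* was not called, with an unadjusted p of 0.028 and an adjusted p of 0.11.

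The X-linked members were not called with TSA, where 18.8% of the genes of that fit were. *Hdac6* had 31.5 to 49.7 CPM (median 40.9) in 7 latrunculin A libraries without TSA and 26.2 to 46.6 CPM (median 30.7) in the 6 matched TSA libraries, and the log2 fold change was −0.21 (95% interval −0.56 to 0.14). *Hdac8* had 2.99 to 5.96 CPM (median 4.46) without and 3.30 to 7.98 CPM (median 5.74) with TSA, with a log2 fold change of 0.30 (−0.28 to 0.87). These groups overlapped for both genes. Of the X-linked genes 14.4% were higher and 6.14% lower with TSA.

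For the remaining members the matched log2 fold changes were −0.86 in *Hdac3*, the catalytic subunit of the NCoR and SMRT complexes, −0.68 in *Hdac5*, −0.50 in *Hdac9*, −0.12 in *Hdac10* and 0.23 in *Hdac4*, and none was called. The median was −0.44 over the 8 autosomal members and −0.12 over all genes.

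**Figure D4:**
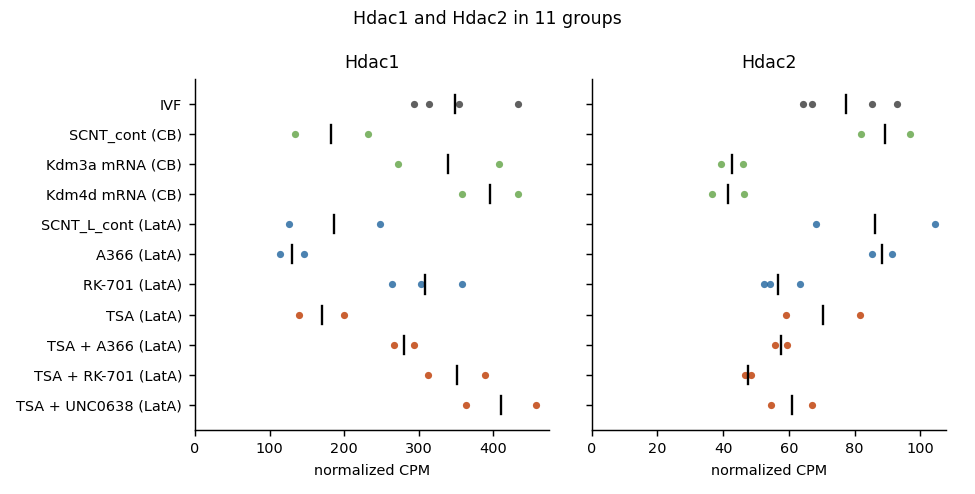
Normalized CPM of *Hdac1* and *Hdac2* in each library (points) by group, with black bars for group means (CB, cytochalasin B, and LatA, latrunculin A). *Hdac1* is low in untreated SCNT (127 to 248 CPM), with A366 (114 and 146) and with TSA alone (140 and 201), and *Hdac2* is low after *Kdm* mRNA (36.5 to 46.2 CPM).

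The third comparison set SCNT embryos given TSA together with a G9a inhibitor against the latrunculin A control. *Hdac1* was higher and *Hdac2* lower, 2 of 8 autosomal members, while 17.5% of all genes were called. In the 6 libraries with TSA and any of the 3 inhibitors *Hdac1* had 267 to 458 CPM with a median of 338, and the controls had 248 and 127. *Hdac2* had 46.6 to 67.1 CPM with a median of 55.1, and the controls had 68.2 and 104.

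Neither gene overlapped between these groups. The log2 fold changes were 0.87 ± 0.24 for *Hdac1* (adjusted p = 0.013, 1.83-fold higher) and −0.65 ± 0.18 for *Hdac2* (adjusted p = 0.014, 1.57-fold lower). Both calls rested on the second control, and without it the values were 0.47 and −0.31 and neither was called. Without the first control they were 1.44 and −0.92. Against the cytochalasin B control the values were 0.91 and −0.70, and both were called, with adjusted p values of 0.011 and 0.0086.

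*Hdac3* had 0.572 to 1.99 CPM (median 1.24) in the 6 libraries with TSA and a G9a inhibitor and 4.56 and 2.14 CPM in the latrunculin A controls. These groups did not overlap, but the log2 fold change of −1.57 ± 0.65 had an adjusted p of 0.097. *Hdac5* had 0.488 to 1.79 CPM (median 1.23) against 1.25 and 3.91 CPM, with −1.20 and an adjusted p of 0.098. It was called without the first latrunculin A control (−1.82, adjusted p = 0.028), and without the second the value was −0.18 (adjusted p = 0.95). It was also called against the cytochalasin B control (−1.45, adjusted p = 0.042, 17.0% of all genes called). *Hdac8* was higher against the cytochalasin B control (1.68 ± 0.47, adjusted p = 0.015, 16.8% of the genes of that fit) and not called against the latrunculin A control (0.71, 95% interval −0.16 to 1.58, 17.3% of the genes of that fit).

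The 3 G9a inhibitors used with TSA were given at the same dose and for the same time. With RK-701 both *Hdac1* (0.91, adjusted p = 0.040) and *Hdac2* (−0.86, adjusted p = 0.017) were called against the latrunculin A control, with 9.65% of all genes. With UNC0638 *Hdac1* was called (1.13, adjusted p = 0.011, 9.03% of all genes), and with A366 neither was (9.21%), at 0.58 and −0.58.

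In the 3 direct comparisons among these groups 0 members were called by edgeR, adjusted over all genes in each. The *Hdac1* difference was 0.32 (95% interval −0.25 to 0.90) for RK-701 against A366, 0.55 (−0.02 to 1.13) for UNC0638 against A366, and 0.23 (−0.35 to 0.80) for UNC0638 against RK-701. The shares of all genes called in these pairs were 0.00%, 1.00% and 1.21%. The 1 member with an unadjusted p under 0.05 was *Hdac9*, with 1.11 for UNC0638 against RK-701 (adjusted p = 0.34). At that threshold the pairs held 3.87%, 10.1% and 11.5% of all genes.

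A G9a inhibitor without TSA called 0 of 8 members against the latrunculin A control, by edgeR and by DESeq2, with 0 at an unadjusted p under 0.05 in edgeR. It called 0.225% of all genes, and 11.5% had an unadjusted p under 0.05. *Hdac4*, a class IIa member, had 4.57 to 8.63 CPM in the 5 libraries with an inhibitor and 11.6 and 9.22 CPM in the controls, which did not overlap, but its log2 fold change of −0.62 had an adjusted p of 0.45. The average covered inhibitors with different values. Each inhibitor alone also called 0 of 8 members against the latrunculin A control in edgeR. At an unadjusted p under 0.05 RK-701 held 3 members and A366 held 1, with no share of all genes to set beside these counts. *Hdac1* was between 265 and 359 CPM in the 3 libraries with RK-701 and at 146 and 114 CPM in those with A366, a log2 difference of 1.25 ± 0.27. *Hdac2* was between 52.4 and 63.5 CPM with RK-701 and at 85.4 and 91.4 with A366, a difference of −0.64 ± 0.21. Neither gene overlapped between the inhibitors, in groups of 3 and 2 libraries that can separate without a difference. Because this pair was chosen after these levels had been seen, it is given without a test.

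The fourth comparison asked how the family differed after injection of *Kdm3a* or *Kdm4d* mRNA, which encode H3K9 demethylases, from the cytochalasin B control. The labels call this control non-treated, so the injection itself and the demethylase cannot be told apart. *Hdac1* was higher and *Hdac2* lower, 2.00-fold and 2.12-fold, 2 of 8 autosomal members, while 8.51% of all genes were called. *Hdac1* had 134 and 232 CPM in the controls, 272 and 407 after *Kdm3a*, and 358 and 434 after *Kdm4d*. *Hdac2* had 96.8 and 81.8 CPM in the controls, 46.0 and 39.4 after *Kdm3a*, and 46.2 and 36.5 after *Kdm4d*.

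Neither gene overlapped between control and injected libraries. The log2 fold changes were 1.00 ± 0.25 for *Hdac1* (adjusted p = 0.013) and −1.09 ± 0.19 for *Hdac2* (adjusted p = 0.00074, 2.12-fold lower). The *Hdac1* call was lost without the first control (0.64, adjusted p = 0.35) and without the second *Kdm3a* library (0.84, adjusted p = 0.054). *Hdac2* remained called with any 1 library left out.

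Taken by mRNA, *Hdac2* was called for both (−1.06 for *Kdm3a* with 6.14% of all genes, −1.11 for *Kdm4d* with 5.15%), and *Hdac1* for *Kdm4d* (1.11, adjusted p = 0.020) but not for *Kdm3a* (0.89, adjusted p = 0.058). *Kdm4d* against *Kdm3a* called 0 members in edgeR and 0.345% of all genes, and at an unadjusted p under 0.05 it held 0 members and 10.0% of all genes. *Hdac8* had 2.83, 5.56, 5.40 and 7.71 CPM after mRNA and 3.29 and 0.638 in the controls, with 1.43 ± 0.48 and an adjusted p of 0.063 in edgeR (8.46% of the genes of that fit called). DESeq2 called it (1.37, adjusted p = 0.024).

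The last comparison asked where the treated embryos stood against IVF embryos. With TSA and a G9a inhibitor *Hdac1* had 267 to 458 CPM against 294 to 433 in IVF libraries, a log2 difference of −0.02 (95% interval −0.39 to 0.35), and it was not called. *Hdac2* and *Hdac9* were lower, 2 of 8 autosomal members, while 28.0% of all genes were called and 14.8% were called lower. *Hdac2* had 46.6 to 67.1 CPM against 67.1, 92.9, 85.4 and 64.3 in IVF, with −0.49 ± 0.15 (adjusted p = 0.012). *Hdac9* had 8.93 to 24.0 CPM (median 11.8) against 21.3 to 30.8 in IVF, with −0.95 ± 0.29 (adjusted p = 0.015). The groups overlapped for both genes, and both calls were lost without the second IVF library (−0.40 and −0.83).

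*Hdac8* had 4.20 to 7.98 CPM with TSA and a G9a inhibitor (median 6.40) and stayed below every IVF library, but its log2 difference of −0.62 (95% interval −1.26 to 0.02) was not called, where 28.0% of the genes of that fit were. TSA alone was lower than IVF in *Hdac1* (−1.03, adjusted p = 0.0038, 21.7% of all genes) and *Hdac8* (−1.40, adjusted p = 0.028, 21.7% of the genes of that fit). A366 alone was lower in *Hdac1* (−1.42, adjusted p = 0.00020, 22.1% of all genes), and RK-701 alone was lower in *Hdac8* (−1.20, adjusted p = 0.029, 19.4% of the genes of that fit).

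After *Kdm3a* mRNA *Hdac2* was lower (−0.86) and *Hdac10* higher (1.43, adjusted p = 0.0057) than in IVF embryos, with 19.3% of all genes called. After *Kdm4d* mRNA *Hdac2* (−0.91) and *Hdac9* (−1.32, adjusted p = 0.032) were lower, with 14.5% of all genes called. The comparisons with IVF share the 4 IVF libraries, so their values are not independent of each other.

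**Figure D5:**
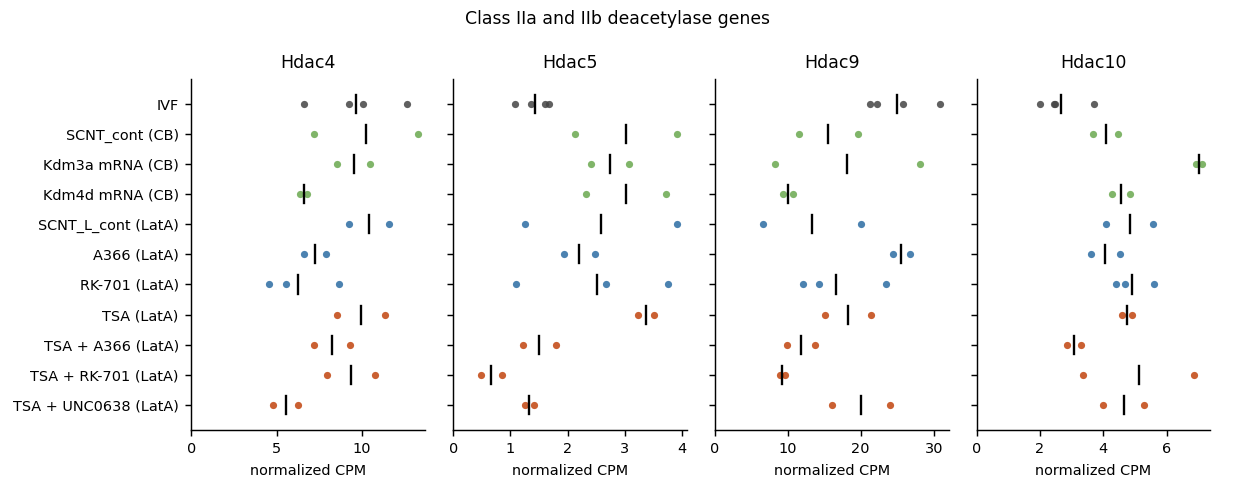
Normalized CPM of the class II members *Hdac4*, *Hdac5*, *Hdac9* and *Hdac10* in each library (points) by group, with black bars for group means (CB, cytochalasin B, and LatA, latrunculin A). *Hdac9* in IVF libraries lies between 21.3 and 30.8 CPM, above the 4 untreated SCNT libraries (6.57 to 20.0), and *Hdac5* is lowest with TSA and RK-701 (0.488 and 0.850).

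Partners of the family were read from 9 lists with 79 autosomal genes tested. With TSA on the matched average 14 were called higher and 9 lower (29.1%, against 18.8% of all genes), and in untreated SCNT against IVF embryos 15 were higher and 17 lower (40.5%, against 29.2%). A G9a inhibitor alone and the interaction called 0 of the 79 in edgeR, against 0.225% and 1.51% of all genes, and *Kdm* mRNA called 7 higher and 3 lower (12.7%, against 8.51%). TSA with a G9a inhibitor called 14 higher and 13 lower against the latrunculin A control (34.2%, against 17.5%) and 15 in each direction against IVF (38.0%, against 28.0%). The lists were short and their members were called in both directions, so the counts are given as description. Each adjusted p below is from edgeR.

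Among partners of HDAC1 and HDAC2, TSA called 3 of 12 Sin3 genes higher and 2 lower, with a median of 0.06 over the list. *Sap30*, a subunit that joins Sin3 to HDAC1, rose from a mean of 55.6 to 95.8 CPM (0.94 ± 0.16, adjusted p = 0.00012), *Brms1l* had 0.53 and *Ing2*, a reader of H3K4 methylation, had 0.61, and *Arid4a* (−0.55) and *Sap130* (−0.47) fell. Of 10 NuRD genes tested, *Gatad2b* (0.42) and *Gatad2a* (0.24) rose and *Mta1* (−1.02) and the methyl-CpG binding *Mbd2* (−0.69) fell. Of 7 CoREST genes, the H3K4 demethylase *Kdm1a* (0.35) and its partner *Rcor1* (0.33) rose and 0 fell, and 0 of 3 MiDAC genes were called.

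For HDAC3, 1 of 4 NCoR complex genes tested was called with TSA, *Tbl1xr1*, which fell from a mean of 93.1 to 52.7 CPM (−0.78 ± 0.11, adjusted p = 1.9e-05). Among 18 partners and kinases of class IIa enzymes, the 14-3-3 genes *Ywhah* (0.59) and *Ywhae* (0.49) rose and *Ywhaz* (−0.48) and the MEF2 factor *Mef2b* (−1.42) fell. Of the 8 deacetylases outside class I and II, *Sirt1* (0.44) rose and the mitochondrial *Sirt3* (−1.45) fell. Enzymes that add acetyl groups were called 3 times higher, *Hat1* (0.51), *Ep300* (0.37) and *Kat6b* (0.27), and once lower, *Kat6a* (−0.45), of 13 tested, and of 4 acetyl-lysine readers of the BET family *Brd3* (0.54) rose.

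In untreated SCNT against IVF embryos the Sin3 genes *Arid4a* (0.50) and *Sin3b* (0.47) were higher and *Brms1l* (−1.31) and *Ing1* (−0.56) lower. The NuRD remodeller *Chd3* (1.85) and *Mbd3* (0.58) were higher and *Gatad2a* (−0.75), *Mta3* (−0.63) and *Gatad2b* (−0.56) lower, and *Phf21a* (0.71) and *Kdm1a* (0.70) of CoREST and *Elmsan1* (0.90) of MiDAC were higher. *Gps2* of the NCoR complex had a mean of 12.8 CPM in untreated SCNT and 49.3 in IVF libraries, 3.91-fold lower (−1.97 ± 0.27, adjusted p = 3.1e-06). The count for NCoR was 1 higher and 1 lower of 4 tested.

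Of the class IIa partners 4 were higher and 5 lower, among them *Mef2b* (1.72), the kinase *Sik3* (2.83-fold), *Ywhah* (0.88), *Ywhae* (−0.90), *Prkd1* (−0.87) and *Ywhaq* (−0.78). *Sirt4* (−1.76) and *Sirt6* (−0.91) were lower. Of the acetyltransferases *Kat6a* (0.95) was higher, and *Kat2a* (−1.01), *Crebbp* (−0.77) and *Kat7* (−0.69) were lower, and of the BET readers *Brd2* (1.21) and *Brd3* (0.95) were higher and *Brdt* (−1.26), a germ cell member, lower.

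The genes whose level followed a member most closely over the 25 libraries were searched among 17987 autosomal genes with a mean TPM above 1, by Pearson's r of log2(TPM + 1), for the 3 members with a mean of at least 10 TPM in every group. For *Hdac1* these were *Gm10093* (r = 0.96), *Gm4864* (0.95) and *Kif20a* (0.93), for *Hdac2* they were *Agps*, *Klhl2* and *Pkn2* (each 0.91), and for *Hdac6* *Nmb*, *D630045J12Rik* and *Nanos2* (each 0.80). The libraries share their groups and scaling, so these values are descriptions.

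*Gm10093* and *Gm4864* are processed pseudogenes that share sequence with *Hdac1*. Of the 75-base windows of *Gm10093* 73.4% occurred in *Hdac1* transcripts, and of those of *Gm4864* 3.3%. Of the *Hdac1* windows 28.0% occurred in *Gm10093*. Reads that fit both genes equally cannot be told apart, and unique alignment left them out of both counts. Adding pseudogene reads to *Hdac1*, as below, does not bring them back. *Gm10093* lies at chr17:78491582-78493025 on the plus strand. Their reads came to 7.84% and 4.72% of the *Hdac1* reads, and to 3.75% to 10.8% per library for *Gm10093*. With the reads of the pseudogenes added to *Hdac1* its log2 fold change was −0.96 in untreated SCNT against IVF, 0.38 with TSA, 0.91 with TSA and a G9a inhibitor against the latrunculin A control, and 1.07 after *Kdm* mRNA, and no call changed.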

How the data were processed

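Messenger RNA of 25 pools of late two-cell embryos was amplified with SMART-Seq HT kits and sequenced as paired ends. The authors used Trimmomatic for trimming and STAR for alignment to the mm10 build, and counted pairs on exons of 55375 genes and on 1755056 transposable element copies with featureCounts (version 1.6.2) without regard to strand, leaving out pairs that overlapped several features. The printed STAR settings kept unique alignments and allowed no mismatches. Reads over bases that differ between strains could be lost this way. Oocyte strain differed between IVF and SCNT embryos, and the part of such a loss in those comparisons was not tested. The deposited values are raw counts, and the authors' own tests used DESeq2.

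Counts of genes were fitted with edgeR 4.0.16 in R 4.3.3, with TMM factors (0.883 to 1.16), 1 term for each of 11 groups and the quasi-likelihood F test. Genes had to reach 1 read on average over the libraries, and p values were adjusted by the Benjamini-Hochberg method over 25794 autosomal genes. The X-linked *Hdac6* and *Hdac8* were read from the same fit with the sex chromosomes included (26817 genes), and mitochondrial genes were left out. A gene was called at an adjusted p under 0.05. Standard errors are the log2 fold change over the square root of F, and intervals cover 95%. CPM values are counts per 1000000 reads after TMM scaling, and TPM values were computed from the counts and exon lengths over autosomal genes. With 6662727 to 21188688 gene reads per library, members at a few CPM rest on few reads.

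Gene names and positions came from the GENCODE M21 annotation of GRCm38, which gave a symbol for 55134 genes, and promoters from RefSeq. Groups came from the sample labels. From each list of partners, up to 3 called genes in each direction with the largest change and a mean of at least 1 TPM were named for the TSA and the untreated SCNT comparison. The members, lists and tests were chosen with earlier results of these data known. Alternatives were DESeq2 1.42.0, RLE factors, other count filters, the sex chromosomes, only the compared libraries, a replicate block, other control groups, each library left out in turn and, chosen after seeing the data, the reads of *Hdac1* pseudogenes added to *Hdac1*. The scripts were tested on simulated data in which every gene had the same spread. There the TSA matched average called 18 of 100 genes changed 2-fold and 96 of 100 changed 4-fold. A member that was not called may therefore still differ.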

Additional observations from a re-analysis of the deposited data

Results flagged for a closer look

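*Hdac7* was detected in 1 of the 4 IVF libraries, at 0.2593 CPM (4 reads), and was at 0 in the other three, which set that library apart from its group. Any count above 0 would be set apart from 3 zeros, so at this limit of detection the value does not show a difference between the libraries. The same test was made on the IVF values of each of the 10 members, and chance sets a library apart in about 1 in 20 groups of this size.

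Reads on transposable element copies in introns of members were outside the comparisons and were not tested. Some copies that were higher in IVF libraries are given first, and some that were not follow. An ORR1A2-int copy in an intron of *Hdac8* (chrX:102379348-102381194, on the strand of the gene) had a mean of 16.5 CPM in IVF libraries (14.1 to 19.1, 116 to 274 reads) and 0.372 to 2.42 CPM (4 to 25 reads) in the 4 untreated SCNT libraries. With TSA and a G9a inhibitor it had 4.95 to 13.3 CPM in 6 libraries, with TSA alone 2.63 and 3.24, and after *Kdm* mRNA 2.82 to 5.34. The exon counts of *Hdac8* were also higher in IVF than in untreated SCNT libraries.

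An MT2_Mm copy in an intron of *Hdac9* (chr12:34131521-34132019, on the strand opposite to the gene) had a mean of 6.29 CPM in IVF libraries (5.12 to 8.88) and 0.291 to 1.58 CPM in untreated SCNT libraries. A copy of MT2_Mm at chr12:34622959-34623398, on the strand of the gene, had a mean of 2.13 CPM in IVF libraries (2.66 at most) and 0.163 to 0.968 CPM in untreated SCNT libraries. A B2_Mm1a copy in an intron of *Hdac1* (chr4:129519482-129519672, on the strand of the gene) went the other way. It had 0 to 0.435 CPM (0 to 7 reads) in IVF and 1.03 to 2.89 CPM in untreated SCNT libraries, where *Hdac1* exon counts were lower. An Lx5c copy in an intron of *Hdac9* (chr12:34073757-34075224) overlapped, with 8.76 to 62.6 CPM in IVF and 7.76 to 205 in untreated SCNT libraries. Reads of near-identical copies of a repeat cannot be assigned with certainty, and unique alignment left out those that fit several copies equally.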

How the results depend on the processing

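The count of autosomal members called with TSA on the matched average was 1 and became 2 with no filter on low counts (*Hdac1* added, adjusted p = 0.010) and 2 in the comparison of all TSA groups with all latrunculin A groups without TSA. It was 0 with the replicate block (*Hdac2* −0.37, adjusted p = 0.066) and 0 in a fit of only the compared libraries (adjusted p = 0.052). In untreated SCNT against IVF the count of 1 became 2 with no filter and 3 with DESeq2, and in the interaction the count of 0 became 1 with no filter (*Hdac9*, adjusted p = 0.029). *Hdac4* in untreated SCNT against IVF, which was not called, reversed to −0.028 with the replicate block. *Hdac8* had 4.86 TPM in IVF libraries over genes of all chromosomes. The cause of these changes was not tested. The replicate block changed no other call of a member in the 7 comparisons it was run for, and comparisons of single treatments were not fitted with it. Replicate numbers did not pair the libraries on the whole, since 4 of 111 same-numbered pairs had a correlation of deviations over 0.1 (−0.322 to 0.165, median −0.004). Pairs with different numbers had a median of 0.003. A batch shared by some of the libraries was not tested.

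With each library left out in turn, the number of members called was 0 to 3 with TSA (3 without the first latrunculin A control), 1 to 2 in untreated SCNT against IVF, 0 to 3 with TSA and a G9a inhibitor against the latrunculin A control (0 without the second control), 0 to 0 for a G9a inhibitor alone, 1 to 2 after *Kdm* mRNA, 0 to 3 with TSA and a G9a inhibitor against IVF (0 without the second IVF library), 0 to 2 for the interaction and 0 to 0 for the X-linked members with TSA. A group left with 1 library was assumed to vary like the other groups. X-linked members were left-out tested only in the TSA and the untreated SCNT comparison, over 19 libraries. *Hdac9* in untreated SCNT against IVF was called in 5 of these fits, at −1.31 without the second latrunculin A control, and was −0.51 (adjusted p = 0.25) without the first. With TSA it was called without the first latrunculin A control (−0.70). *Hdac5* and *Hdac10* in untreated SCNT against IVF were called without the first latrunculin A control (1.24) and the first IVF library (0.94). *Hdac10* was called with TSA and a G9a inhibitor against IVF without the first IVF library (0.86) or the second with TSA and RK-701 (0.82).

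Values that changed sign with 1 library left out were not called, and their ranges were as follows. For a G9a inhibitor alone they were −0.31 to 0.66 in *Hdac1*, −0.56 to 0.053 in *Hdac2*, −1.37 to 0.0029 in *Hdac3*, −0.73 to 0.91 in *Hdac5*, −1.39 to 3.61 in *Hdac7* and −0.32 to 0.13 in *Hdac10*. In untreated SCNT against IVF they were −0.18 to 0.29 in *Hdac4*, −0.24 to 0.12 in *Hdac6* and −1.17 to 4.06 in *Hdac7*. After *Kdm* mRNA they were −0.74 to 0.12 in *Hdac4*, −0.47 to 0.43 in *Hdac5*, −2.15 to 3.24 in *Hdac7* and −0.78 to 0.22 in *Hdac9*. For the interaction they were −0.48 to 0.13 in *Hdac2*, −3.61 to 1.39 in *Hdac7* and −0.46 to 0.063 in *Hdac10*. With TSA and a G9a inhibitor they were −0.096 to 0.098 in *Hdac1* against IVF, and −0.62 to 0.98 in *Hdac9* and −0.42 to 0.036 in *Hdac10* against the latrunculin A control. With TSA *Hdac10* ranged from −0.33 to 0.020.

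Over all genes, the interaction called 389 genes, and 1049 with no filter, 139 with the replicate block, 120 in the compared libraries and 1333 with DESeq2. A G9a inhibitor alone called 58, and 376, 20, 1 and 410 in the same order. TSA with a G9a inhibitor called 7234 against IVF and 4796 with the replicate block, and 4509 against the latrunculin A control and 2980 in the compared libraries. With RLE factors the share of higher calls after *Kdm* mRNA moved from 63.8% to 53.9%. *Hdac3*, *Hdac5* and *Hdac7* rest on few reads, which limits what could be detected.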
